A study of Mus musculus with 8 samples.

Results

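The genes of de novo lipogenesis were followed in the livers of mice with acute liver failure (ALF). They were 10 genes chosen by name for their part in fatty acid synthesis, with earlier results of these data known. These were Acly, Me1, Acaca, Acacb, Fasn, Elovl6, Scd1, Srebf1, Mlxipl and Thrsp. All 10 were found by name and Ensembl ID among the 48286 genes that the 2 count tables share. RNA was sequenced from 8 whole livers of male WT mice aged 8 to 9 weeks, 2 livers in each of 4 groups, 24 h after treatment. In the TAA model, fed mice received 200 mg/kg of thioacetamide (TAA), a hepatotoxin, into the peritoneum, and their controls were fed mice given PBS. In the APAP model, mice fasted overnight received 500 mg/kg of acetaminophen (APAP) into the stomach, and their controls were fasted mice given PBS. The fast went on for another 6 h after dosing and then ended, whereas livers were taken at 24 h. Fasted therefore names these groups and not the feeding state when livers were taken. No transgene or deletion was involved, so the models differed in agent, route and feeding. Each model was therefore compared with its own controls.

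De novo lipogenesis is the route by which the liver turns surplus carbohydrate into fatty acids. Citrate exported from mitochondria is cleaved to acetyl-CoA, carboxylated to malonyl-CoA, built into palmitate by fatty acid synthase, and then elongated and desaturated for storage as triglyceride. Insulin acting through SREBP-1c and the nuclear receptor LXR, and glucose acting through ChREBP, switch the enzymes on together after a meal. Fasting switches them off.

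The tables held 35711238 to 41453751 counts per liver for the TAA model and 22320118 to 27110041 for the APAP model. Each of the 10 genes had at least 292 counts in every liver and passed the filter on low counts in both models. A whole liver mixes cell types, so fewer cells of a type and less RNA per cell cannot be told apart. The labels do not say whether replicates were separate mice, so p values measure the spread between 2 libraries per group, which may in part be technical. Levels are given as CPM, a gene's counts scaled to the size of its library by TMM factors within each table, and a gene was called at an adjusted p below 0.05 in edgeR's quasi-likelihood test with Benjamini-Hochberg adjustment over all genes tested.

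Both models had lower RNA of the lipogenic genes. After TAA, 7 of the 10 genes fell and none rose, whereas of all 16847 genes tested 13.8% were called lower and 12.1% higher, 25.8% in all. After APAP, 8 of the 10 fell and none rose, whereas of all 14794 genes tested 27.5% were called lower and 28.6% higher, 56.2% in all. In neither model was any of the 10 higher in edgeR's test at an unadjusted p below 0.05 or in DESeq2, with 0 genes in both. The median log2 fold change of the 10 genes was -1.44 after TAA and -1.89 after APAP, beside 0.03 and 0.04 over all genes tested. In both TAA livers all 10 genes lay below both PBS livers, a placement that 34.0% of all tested genes had. After APAP this was so for 9 of the 10 genes, Srebf1 being the exception, and for 38.1% of all tested genes. The 10 genes together took 1.00% and 0.727% of all counts in the PBS livers and 0.255% and 0.474% in the TAA livers. They took 0.673% and 0.628% in the fasted PBS livers and 0.249% and 0.356% in the APAP livers, and Scd1 alone made up between 66.7% and 81.2% of that share in every liver.

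**Figure D1:**
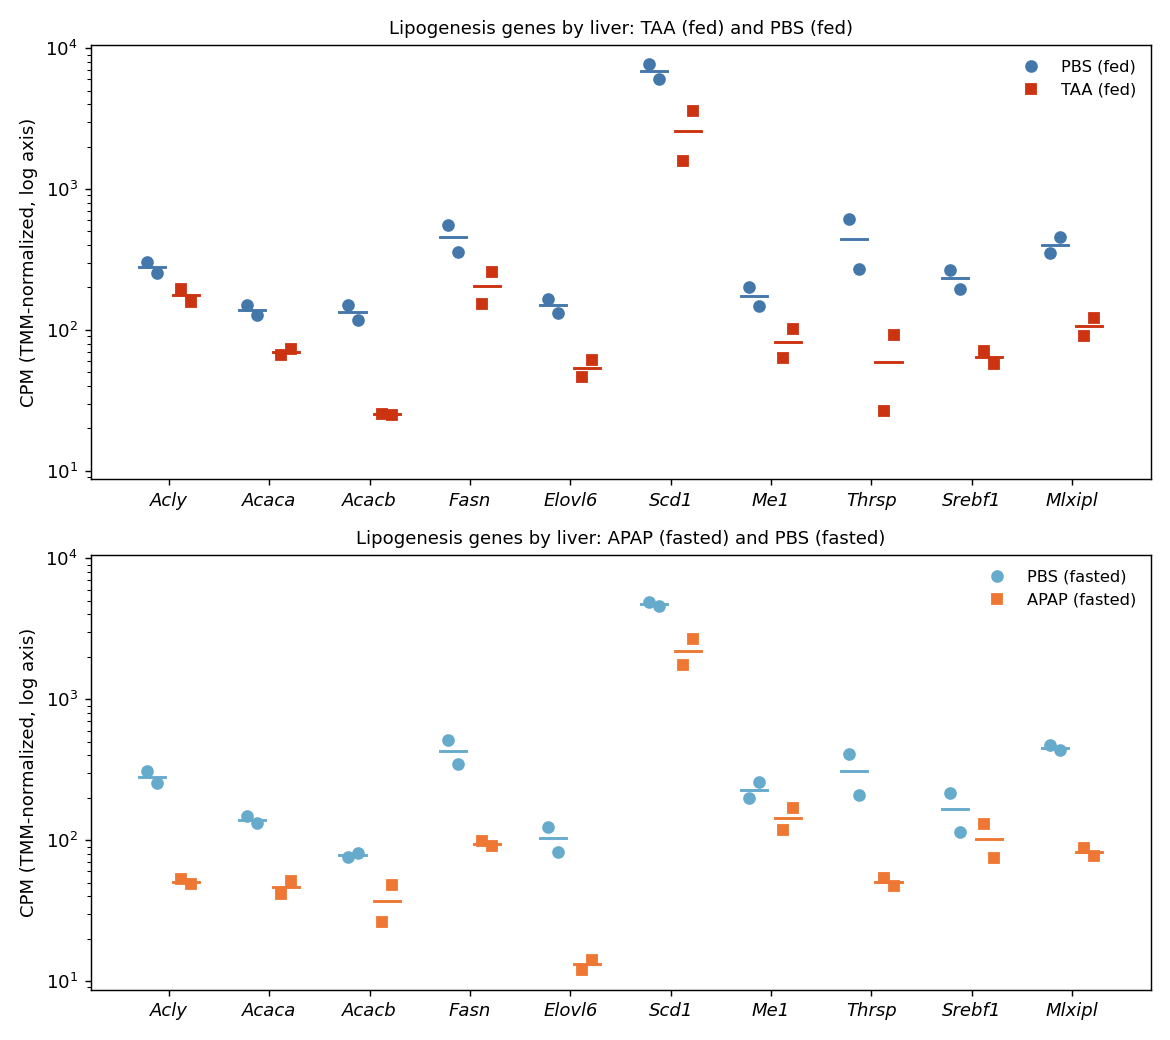
Level of each lipogenesis gene in each liver, in TMM-normalized CPM on a log axis, with fed PBS (circles) and TAA livers (squares) above and fasted PBS (circles) and APAP livers (squares) below. Each point is 1 liver and each short line the mean of 2 livers, and Srebf1 in the APAP model is the only gene whose treated and control livers overlap.

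Acly and Me1 supply the pathway. Acly encodes ATP citrate lyase, which cleaves cytosolic citrate to acetyl-CoA. Its level was 306 and 253 CPM in the PBS livers, 194 and 157 CPM after TAA, 310 and 254 CPM in the fasted PBS livers, and 52.7 and 49.1 CPM after APAP. The 2 control groups were alike, and all 4 treated livers lay below their controls, by far the more so after APAP. The log2 fold change was -2.47 ± 0.13 (SE, n = 2 livers per group; edgeR adjusted p = 4.73e-07) after APAP, a level 5.54-fold lower, and -0.67 ± 0.20 after TAA, which did not pass the test (edgeR adjusted p = 0.0579).

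Me1 encodes the cytosolic malic enzyme, a source of NADPH for fatty acid synthesis. It stood at 201 and 149 CPM in the PBS livers and at 63.2 and 101 CPM after TAA. In the fasted livers it stood at 198 and 258 CPM with PBS and at 118 and 169 CPM after APAP. The groups did not overlap in either model, and the higher treated liver lay nearer to the lower control after APAP (169 and 198 CPM) than after TAA (101 and 149 CPM). Me1 fell after TAA (log2 fold change -1.09 ± 0.28, edgeR adjusted p = 0.0405) and after APAP (-0.66 ± 0.20, edgeR adjusted p = 0.0283), the latter the smallest log2 change called among the 10 genes in either model.

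Acaca and Acacb encode the acetyl-CoA carboxylases ACC1 and ACC2. ACC1 is cytosolic and makes the malonyl-CoA used for synthesis, whereas ACC2 sits at the outer mitochondrial membrane, where its malonyl-CoA restrains fatty acid entry through CPT1. Acaca measured 151 and 128 CPM with PBS and 66.7 and 72.7 CPM after TAA, 147 and 131 CPM with fasted PBS, and 41.6 and 51.6 CPM after APAP. Replicates lay close together, and the treated livers sat well under their controls in both models. Acaca fell by 1.00 ± 0.16 on the log2 scale after TAA, 2.00-fold (edgeR adjusted p = 0.0118), and fell 2.99-fold after APAP (log2 fold change -1.58 ± 0.13, edgeR adjusted p = 6.82e-06).

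Acacb measured 149 and 118 CPM with PBS and 25.4 and 25.1 CPM after TAA. In the fasted livers it measured 75.5 and 81.1 CPM with PBS and 26.3 and 48.2 CPM after APAP. The TAA livers were nearly equal and far below their controls, and the APAP livers differed widely from each other. Acacb fell 5.30-fold after TAA (log2 fold change -2.40 ± 0.18, edgeR adjusted p = 0.00281), the second largest log2 change among the 10 genes. After APAP its log2 fold change of -1.07 ± 0.32 narrowly missed the test (edgeR adjusted p = 0.0549). The ratio of Acacb to Acaca counts was 0.988 and 0.926 in the PBS livers and 0.381 and 0.345 in the TAA livers, so the 2 carboxylase RNAs did not fall in proportion. In the APAP model it was 0.512 and 0.616 in the fasted PBS livers and 0.633 and 0.934 in the APAP livers. The APAP values lay above both controls rather than below. These ratios were read as descriptions, with no test.

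Fasn encodes fatty acid synthase, the multifunctional enzyme that assembles palmitate. Its level was 552 and 359 CPM with PBS, 153 and 258 CPM after TAA, 517 and 347 CPM with fasted PBS, and 98.4 and 90.8 CPM after APAP. Control livers spread widely in both models, and the APAP livers were tight and low. After APAP Fasn fell 4.56-fold (log2 fold change -2.19 ± 0.19, edgeR adjusted p = 4.06e-05). After TAA the mean was 45.2% of the PBS mean, with a log2 fold change of -1.15 ± 0.34 that did not pass the test (edgeR adjusted p = 0.0582).

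Elovl6 encodes the elongase that lengthens palmitate to stearate. It measured 166 and 132 CPM with PBS, 46.2 and 61.6 CPM after TAA, 124 and 82.6 CPM with fasted PBS, and 12.0 and 14.2 CPM after APAP. The APAP livers held the lowest CPM of any of the 10 genes in any group. Elovl6 fell 2.77-fold after TAA (log2 fold change -1.47 ± 0.21, edgeR adjusted p = 0.00912) and 7.89-fold after APAP (log2 fold change -2.98 ± 0.22, edgeR adjusted p = 7.20e-05), the largest change of the 10 genes in that model.

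Scd1 encodes stearoyl-CoA desaturase, which makes oleate from stearate. It was by far the most abundant of the 10 RNAs, at 7666 and 6033 CPM with PBS, 1590 and 3560 CPM after TAA, 4937 and 4556 CPM with fasted PBS, and 1749 and 2678 CPM after APAP. The groups were apart in both models, but the TAA livers differed from each other by more than the PBS livers did. Scd1 fell 2.14-fold after APAP (log2 fold change -1.10 ± 0.20, edgeR adjusted p = 0.00162). After TAA its log2 fold change was larger in size, at -1.41 ± 0.43, and did not pass the test (edgeR adjusted p = 0.0627). Scd2, a close relative, measured between 3.09 and 16.9 CPM in every liver and was not called in either model in edgeR's main fit. Its log2 fold changes were 0.75 after TAA and 0.52 after APAP. Some alternatives called it higher, such as DESeq2 after TAA (0.73, DESeq2 adjusted p = 0.0279). Reads of such near copies may be shared between them by the counting, so the low values of Scd2, Scd3 and Scd4 are uncertain. Scd3 was at 0 in 5 of the 8 livers and at 5.16 CPM in TAA replicate 2 alone, and Scd4 stayed below 0.16 CPM, and both fell under the filter.

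Srebf1, Mlxipl and Thrsp are the regulators. Srebf1 encodes SREBP-1, whose liver form SREBP-1c drives most of the enzymes above. Its level was 268 and 195 CPM with PBS, 70.5 and 57.3 CPM after TAA, 218 and 115 CPM with fasted PBS, and 130 and 74.3 CPM after APAP. The TAA livers lay far below both PBS livers, while APAP replicate 1 lay above fasted PBS replicate 2. Srebf1 fell 3.63-fold after TAA (log2 fold change -1.86 ± 0.22, edgeR adjusted p = 0.00611). After APAP its log2 fold change of -0.70 ± 0.53 did not pass the test (edgeR adjusted p = 0.361), and its SE was the largest of the 10 genes in that model.

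Mlxipl encodes ChREBP, the carbohydrate-responsive factor. It measured 351 and 453 CPM with PBS, 90.4 and 122 CPM after TAA, 471 and 437 CPM with fasted PBS, and 88.5 and 77.1 CPM after APAP. All 4 control livers were high, all 4 treated livers low, and the gap between them was wide in both models. Mlxipl fell 3.78-fold after TAA (log2 fold change -1.92 ± 0.24, edgeR adjusted p = 0.00662) and 5.48-fold after APAP (log2 fold change -2.45 ± 0.13, edgeR adjusted p = 3.75e-07). Its dimer partner gene Mlx measured 16.1 to 29.5 CPM across the 8 livers, its log2 fold change being -0.19 in the TAA and 0.30 in the APAP model, neither past the test.

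Thrsp encodes Spot 14, a small thyroid hormone-responsive protein linked to lipogenesis. It measured 616 and 269 CPM with PBS, 26.6 and 92.2 CPM after TAA, 410 and 209 CPM with fasted PBS, and 54.1 and 47.5 CPM after APAP. Its replicates were the most uneven of the 10 genes in the PBS and TAA groups, and even so the groups did not overlap. Thrsp fell 7.46-fold after TAA (log2 fold change -2.90 ± 0.73, edgeR adjusted p = 0.0437), the largest change of the 10 genes in that model, and 6.09-fold after APAP (log2 fold change -2.61 ± 0.41, edgeR adjusted p = 0.0117). Its paralog Mid1ip1, whose product binds and activates ACC, stood at 31.3 and 19.8 CPM with PBS and 11.0 and 13.2 CPM after TAA, where it fell (-1.07, edgeR adjusted p = 0.0354). After APAP it went from 45.7 and 46.1 CPM to 9.57 and 7.75 CPM and fell further (-2.41, edgeR adjusted p = 6.15e-07), and the TAA effect minus the APAP effect, 1.31 ± 0.31, was called (edgeR adjusted p = 0.0324). The fall of Mid1ip1 after TAA lost its call without any 1 of the 4 livers (-1.36 to -0.72), and the difference lost it without any 1 of the 4 livers of the APAP model and with a replicate block.

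The stretches before the start sites of Fasn and Srebf1 are shown because these genes are the pathway's namesake enzyme and its best known switch, and because both windows carry a match to the LXR element. Of the 10 genes, 9 were found in the RefSeq promoter table (GRCm38.p6), which does not list Scd1, with 13 start sites in all. The 250 bases before each start site were searched on both strands for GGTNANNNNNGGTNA, a repeat with a spacer of 4 bases that LXR binds together with RXR. Matches overlapped no other motif searched. Capitals mark this match and each CCAAT box, the site of NF-Y, a partner of SREBP, on either strand.
Fasn, minus strand, chr11:120824548-120824797: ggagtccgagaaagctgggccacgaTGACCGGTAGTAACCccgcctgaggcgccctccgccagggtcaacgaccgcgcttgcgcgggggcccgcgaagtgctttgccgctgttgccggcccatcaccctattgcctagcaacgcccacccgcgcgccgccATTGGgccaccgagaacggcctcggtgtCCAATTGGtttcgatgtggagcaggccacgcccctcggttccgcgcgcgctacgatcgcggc
Srebf1, minus strand, chr11:60210472-60210721: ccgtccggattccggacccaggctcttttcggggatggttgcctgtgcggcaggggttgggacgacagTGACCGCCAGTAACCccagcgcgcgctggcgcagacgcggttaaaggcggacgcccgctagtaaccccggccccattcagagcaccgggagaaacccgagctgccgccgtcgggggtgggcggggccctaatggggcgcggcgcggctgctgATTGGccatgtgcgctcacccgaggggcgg
The element began 225 bases before the start site in Fasn, where it read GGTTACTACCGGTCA on the opposite strand, and 182 bases before it in Srebf1, where it read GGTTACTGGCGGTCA on the opposite strand. It was found in 0.621% of all 32851 windows of the same length. CCAAT was found in 7 of the 13 windows of lipogenic genes and in 33.8% of all windows, with 3 matches in the Fasn window. The E box CACGTG, in the core of the ChREBP element, was found in 1 of the 13 windows, of Mlxipl itself, and in 6.02% of all windows. The sterol regulatory element TCACNCCAC was found in 1 window, also of Mlxipl, and in 1.05% of all windows. GGGCGG, the GC box of Sp1, was found in 5 of the 13 windows and in 32.7% of all windows. These are matches of letters, and no binding was measured.

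The effects of the 2 models were compared in a fit of all 8 livers, as the TAA effect minus the APAP effect. This difference was called for 3 of the 10 genes, whereas of the 17381 genes tested 11.0% were called, 4.63% with a positive and 6.37% with a negative difference. Acly fell more after APAP than after TAA, with a difference of 1.77 ± 0.24 on the log2 scale (edgeR adjusted p = 0.00395). Elovl6 also fell more after APAP, with a difference of 1.48 ± 0.32 (edgeR adjusted p = 0.0241). Acacb went the other way and fell more after TAA, with a difference of -1.36 ± 0.36 (edgeR adjusted p = 0.0459). For Fasn the difference was 1.01 ± 0.43 (edgeR adjusted p = 0.181) and for Srebf1 -1.19 ± 0.53 (edgeR adjusted p = 0.206), so a call in only 1 model did not show that the models differed for these genes. For Acaca, Scd1, Mlxipl, Me1 and Thrsp the difference lay between -0.45 and 0.55 and was not called. The difference in Acly was called without any 1 liver and ranged from 1.62 to 2.03. That in Acacb kept its call when APAP replicate 1 was left out and lost it when any 1 of the other 7 livers was (-0.87 to -1.47, edgeR adjusted p from 0.0664 to 0.153). That in Elovl6 was lost without PBS replicate 2 (1.39), fasted PBS replicate 1 (1.15), APAP replicate 1 (1.36) or APAP replicate 2 (1.61). Agent, route, feeding and the kind of counts (whole or estimated) differed together between the models and cannot be told apart here.

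**Figure D2:**
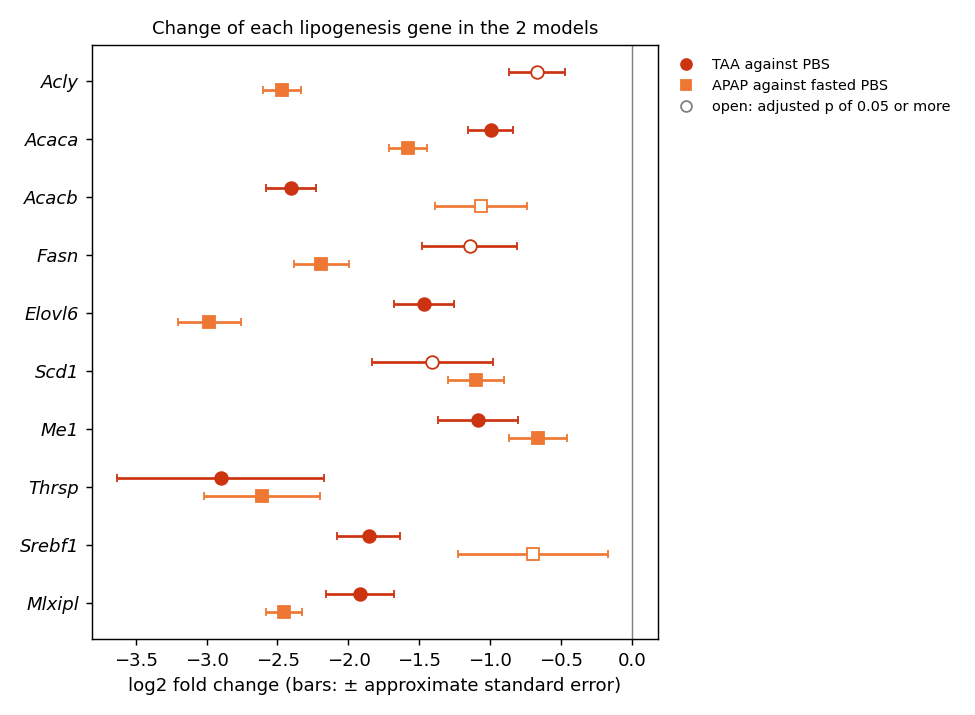
Log2 fold change of each lipogenesis gene after TAA (circles) and after APAP (squares), each against its own PBS controls, with bars of 1 approximate SE and open symbols where the adjusted p was 0.05 or more. All 20 values lie below 0, and Acly, Elovl6 and Acacb have the 3 differences between models that were called.

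Each liver was left out in turn, so that a group of 1 was set against a group of 2 and the spread within groups came from the larger group, the lone liver being assumed to vary like it. In the TAA model the number of lipogenic genes called lower was 3 without PBS replicate 1 (Acacb, Mlxipl and Srebf1) and 3 without PBS replicate 2 (Acacb, Elovl6 and Srebf1), 5 without TAA replicate 1 and 8 without TAA replicate 2. Over all genes tested, the share called lower in the same fits was 3.76%, 2.33%, 9.71% and 10.6%. All 10 log2 fold changes stayed negative in each of these fits, and Acacb and Srebf1 stayed called in all 4. Fasn and Scd1 were called without TAA replicate 2, at log2 fold changes of -1.56 and -2.10. Acaca lost its call without PBS replicate 1 (-0.89) or PBS replicate 2 (-1.11), Elovl6 without PBS replicate 1 (-1.31) and Mlxipl without PBS replicate 2 (-1.72). Me1 lost it without PBS replicate 1 (-0.88), PBS replicate 2 (-1.29) or TAA replicate 1 (-0.79), and Thrsp without any 1 of the 4 livers (-2.21 to -4.05). In PBS replicate 1, 9 of the 10 genes were higher than in PBS replicate 2, with a median of 0.34 on the log2 scale, as against 49.3% of all tested genes. In TAA replicate 2, 7 of the 10 were higher than in TAA replicate 1, with a median log2 difference of -0.42 for replicate 1 against replicate 2. Over all tested genes 46.4% were higher in TAA replicate 1, with a median log2 difference of -0.03.

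In the APAP model between 7 and 8 of the 10 genes were called lower without any 1 liver, beside 21.9% to 24.0% of all genes tested in the same fits. Acaca, Acly, Elovl6, Fasn, Mlxipl and Scd1 were called in all 4 of these fits. Acacb passed the test without APAP replicate 1 (-0.70) or APAP replicate 2 (-1.57). Thrsp lost its call without APAP replicate 1 (-2.71) or APAP replicate 2 (-2.52), and Me1 without APAP replicate 1 (-0.43) or fasted PBS replicate 2 (-0.51). For Srebf1 the log2 fold change went from -0.18 without fasted PBS replicate 1 to -1.16 without APAP replicate 1, and it was called in none of the 4. In fasted PBS replicate 1, 8 of the 10 genes were higher than in fasted PBS replicate 2, beside 49.3% of all tested genes.

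Levels were also compared between genes, as CPM per kilobase of merged exons. Merged exons take in every annotated transcript, 17074 bases for Acaca and 9632 for Acacb, so the order between genes depends on the annotation. In the PBS livers Scd1 led at 1400 ± 236 (SD, n = 2), followed by Thrsp at 202 ± 112 and Mlxipl at 72.5 ± 13.1. Acly, Me1, Fasn and Srebf1 followed between 41.1 and 53.0 with overlapping ranges, then Elovl6 at 23.2 ± 3.72, Acacb at 13.9 ± 2.28 and Acaca at 8.16 ± 0.967. After TAA Scd1 stayed first at 526 ± 285, Acly came second at 33.3 ± 4.93 and overlapped Thrsp, and Acacb dropped to the last place at 2.62 ± 0.0241, below Acaca at 4.08 ± 0.249 with no overlap. In the fasted PBS livers Acaca and Acacb were level at 8.17 ± 0.662 and 8.12 ± 0.410, whereas their means before division by length were 139 and 78.3 CPM. After APAP Me1 came second at 37.3 ± 9.28, Acly sixth at 9.63 ± 0.481, and Elovl6 was last at 2.04 ± 0.244. Exon overlaps with other annotated genes were at most 235 bases per gene, in Elovl6, Me1, Mlxipl and Srebf1, and strand was not stated for the counting.

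Fasted and fed PBS livers lie in different tables, so feeding and table cannot be told apart and the values were only set side by side. The fast had ended 6 h after dosing, so livers taken at 24 h cannot show what fasting itself does to these genes. Acly, Acaca, Fasn and Mlxipl were at much the same CPM in both, with means of 280 and 282 for Acly, 139 and 139 for Acaca, 455 and 432 for Fasn, and 402 and 454 for Mlxipl. Acacb was at a mean of 134 CPM in the fed and 78.3 CPM in the fasted livers, and Scd1 at 6850 and 4746 CPM. In the same order, mean CPM was 149 and 103 for Elovl6, 232 and 166 for Srebf1, and 443 and 309 for Thrsp. Me1 went the other way, at 175 and 228 CPM. Livers of the fed and fasted PBS groups overlapped for Srebf1, Thrsp and Me1.

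Around the 10 genes, 75 further genes in 7 lists were read, also chosen with earlier results of these data known. They covered the supply of precursors, the control of malonyl-CoA, other steps of chain modification, the upstream regulators, glucose sensing, glycerolipid synthesis and insulin signalling. Of the 71 tested after TAA, 24 fell (33.8%, beside 13.8% of all genes tested) and 7 rose (9.86%, beside 12.1%). Of the 70 tested after APAP, 40 fell (57.1%, beside 27.5% of all genes tested) and 13 rose (18.6%, beside 28.6%). These shares over all genes are the background for the counts in each list, several of which lie near them. After TAA the lists held 8 lower and 4 higher genes without PBS replicate 1 and 2 lower and 2 higher without PBS replicate 2, in fits where calls over all genes dropped as well, to 3.76% and 2.33% lower. All 24 lower and 7 higher genes kept their sign in both fits, and the median log2 fold change of the 24 was -1.22 and -1.18 there beside -1.12 with all livers. These genes were picked by their calls in the same livers, so a kept sign and a similar median were favoured in advance. The list medians that follow are log2 fold changes and stand beside 0.03 and 0.04 over all genes tested. For a gene called in only 1 model, the models are not shown to differ unless a called difference is given.

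In precursor supply the genes moved in both directions, with list medians of -0.12 after TAA and -0.57 after APAP. Of 9 tested, 3 fell and 2 rose after TAA, and 6 fell and 2 rose after APAP. Acss2, which makes cytosolic acetyl-CoA from acetate, went from 441 and 317 CPM to 34.3 and 58.5 CPM after TAA and from 263 and 262 CPM to 16.3 and 21.5 CPM after APAP. All 4 treated livers lay far below their controls, and Acss2 fell in both models (log2 fold change -3.03 ± 0.33 for TAA, edgeR adjusted p = 0.00519, and -3.79 ± 0.15 for APAP, edgeR adjusted p = 9.45e-08). Idh1 and Mdh1, cytosolic dehydrogenases of isocitrate and malate, fell in both as well, with log2 fold changes from -1.40 to -0.96 for Idh1 and from -1.05 to -0.96 for Mdh1. Slc25a1, the mitochondrial citrate carrier, fell after APAP (log2 fold change -1.06, edgeR adjusted p = 4.51e-05) and had a log2 fold change of -0.55 after TAA (edgeR adjusted p = 0.0523). By contrast the oxidative pentose phosphate enzymes, which make NADPH, rose. G6pdx went from 12.0 and 8.29 CPM to 31.5 and 30.7 CPM after TAA and from 2.27 and 2.40 CPM to 7.76 and 8.56 CPM after APAP. Its log2 fold changes were 1.61 after TAA and 1.80 after APAP (edgeR adjusted p = 0.00806 and 8.01e-05). Pgd rose as well (log2 1.59 after TAA and 0.76 after APAP, edgeR adjusted p = 0.00734 and 0.000290). Of the other malic enzymes, Me2 was not called in either model, at log2 fold changes of -0.10 and 0.46, and Me3 was under the filter.

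Among the genes that control malonyl-CoA, 4 of 10 fell and 3 rose after TAA, and 6 fell and 2 rose after APAP, with list medians of -0.28 after TAA and -0.45 after APAP. Mlycd, which destroys malonyl-CoA, fell (log2 -1.54 after TAA and -0.47 after APAP, edgeR adjusted p = 0.00675 and 0.00301). The genes of AMPK, the kinase that inhibits both carboxylases, moved in both directions. The catalytic Prkaa2 fell in both models (log2 -1.13 after TAA and -0.53 after APAP), and the regulatory Prkag2 fell likewise (log2 -1.11 after TAA and -0.72 after APAP), whereas the other gamma subunit gene measured, Prkag1, was not called (log2 0.13 after TAA and 0.08 after APAP). The beta subunit genes rose, namely Prkab1 (log2 0.60 after TAA and 0.77 after APAP) and Prkab2 (log2 1.57 after TAA and 1.36 after APAP). The other catalytic subunit gene, Prkaa1, rose after TAA (log2 fold change 0.76, edgeR adjusted p = 0.0474) and had a log2 fold change of -0.40 after APAP (edgeR adjusted p = 0.0620). After TAA Prkaa1 lost its call without any 1 of the 4 livers (0.55 to 1.00, edgeR adjusted p from 0.0671 to 0.190), with no filter (edgeR adjusted p = 0.0664) or with no robust estimation (edgeR adjusted p = 0.0522). Without any 1 liver so did Prkab1 (0.50 to 0.71, edgeR adjusted p from 0.0540 to 0.183). Stk11, which encodes LKB1, the kinase upstream of AMPK, fell after APAP (log2 fold change -0.43, edgeR adjusted p = 0.00514) and had a log2 fold change of -0.48 after TAA (edgeR adjusted p = 0.0728).

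Of 12 other elongases, desaturases and their partners tested, 6 fell and 1 rose after TAA, and 7 fell and 3 rose after APAP, with list medians of -0.81 after TAA and -0.71 after APAP. The desaturases of polyunsaturated fatty acids fell in both models, namely Fads1 (log2 -1.26 after TAA and -1.43 after APAP) and Fads2 (log2 -1.75 after TAA and -1.03 after APAP). Elovl2 fell too (log2 -1.69 after TAA and -0.84 after APAP). Elovl5, which elongates polyunsaturated fatty acids, went from 287 and 270 CPM to 85.2 and 109 CPM after TAA but from 251 and 298 CPM to 453 and 459 CPM after APAP. It fell in the first model and rose in the other (log2 -1.52 after TAA and 0.73 after APAP), and the difference of -2.28 ± 0.23 was called (edgeR adjusted p = 0.00133). Hacd3, a dehydratase of chain elongation, was lower after TAA and higher after APAP (log2 -0.63 and 1.06), with a called difference of -1.72 ± 0.28 (edgeR adjusted p = 0.00762). The fall of Hacd3 after TAA was not called without any 1 of the 4 livers (-0.69 to -0.56, edgeR adjusted p from 0.0698 to 0.190) or with library totals alone (-0.42, edgeR adjusted p = 0.128), whereas the difference was called in all 8 such fits. Elovl7 rose from 1.21 and 0.832 CPM to 7.41 and 8.62 CPM after TAA and from 0.203 and 0.139 CPM to 2.22 and 3.49 CPM after APAP, low levels throughout. Hsd17b12 fell after APAP (log2 fold change -0.90) and was not called after TAA (log2 fold change -0.15).

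Of 11 genes of SREBP processing and LXR, 3 fell and none rose after TAA, and 5 fell and 1 rose after APAP, with list medians of -0.36 after TAA and -0.10 after APAP. Insig2 alone was higher after TAA at an unadjusted p below 0.05 in edgeR's test, and DESeq2 called 1 gene higher. Scap, the escort of SREBP, fell (log2 -1.09 after TAA and -1.19 after APAP), and so did Nr1h3, which encodes LXR-alpha (log2 -0.70 after TAA and -0.67 after APAP). Rxra, its partner, fell after TAA (log2 fold change -0.93) and had a log2 fold change of -0.05 after APAP. Without 1 liver after TAA, log2 fold changes ran from -1.42 to -0.68 for Scap, -0.85 to -0.54 for Nr1h3 and -1.02 to -0.84 for Rxra. Each lost its call in some of these fits. Nr1h3 lost it also with library totals alone (-0.48), with no filter or with a replicate block. Srebf2, the paralog of Srebf1 that drives sterol synthesis, was at 92.5 and 82.9 CPM with PBS and 109 and 93.1 CPM after TAA, where it was not called, and fell from 49.8 and 52.6 CPM to 26.2 and 27.9 CPM after APAP (log2 fold change -0.92, edgeR adjusted p = 6.54e-05). The difference between models in Srebf2 was 1.09 ± 0.18 (edgeR adjusted p = 0.00797). The INSIG genes, whose products hold SREBP in the endoplasmic reticulum, moved apart after APAP. Insig1 fell from 320 and 295 CPM to 106 and 86.9 CPM, and Insig2 rose from 149 and 176 CPM to 728 and 693 CPM. Their log2 fold changes were -1.67 and 2.13 (edgeR adjusted p = 4.54e-06 and 1.02e-06). After TAA they were -0.36 and 0.93, and neither passed edgeR's test, whereas DESeq2 called Insig2 higher (0.92, DESeq2 adjusted p = 0.0229). The differences between models were not called, at 1.28 ± 0.36 for Insig1 and -1.22 ± 0.36 for Insig2 (edgeR adjusted p = 0.0563 and 0.0671). Mbtps1, a protease that cleaves SREBP, fell after APAP (log2 fold change -0.91).

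Of 9 genes of glucose sensing and ChREBP partners, 5 fell after TAA and 7 after APAP, and none rose, and the list median was lower by 1.00 on the log2 scale after TAA and was -1.56 after APAP. The counts of higher genes at an unadjusted p below 0.05 were 0 after TAA and 1 after APAP (Mlx) in edgeR's quasi-likelihood test, and DESeq2 called 0 in both. Slc2a2, the glucose transporter GLUT2, went from 315 and 343 CPM to 50.2 and 89.6 CPM after TAA and from 350 and 320 CPM to 25.0 and 26.2 CPM after APAP. It fell (log2 -2.23 after TAA and -3.71 after APAP), and the difference of 1.44 ± 0.33 was called (edgeR adjusted p = 0.0294). Pklr, liver pyruvate kinase and a textbook ChREBP target, fell (log2 -2.49 after TAA and -2.56 after APAP). G6pc, the catalytic subunit of glucose-6-phosphatase, fell (log2 -3.02 after TAA and -2.45 after APAP), and so did Khk, ketohexokinase (log2 -1.09 after TAA and -0.85 after APAP). Tkfc, which handles glyceraldehyde from fructose, fell after APAP (log2 fold change -1.56) and was not called after TAA (log2 fold change -0.24), and its difference of 1.29 ± 0.28 was called (edgeR adjusted p = 0.0239).

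Of the glycerolipid genes, 3 of 9 tested fell and none rose after TAA, also at an unadjusted p in edgeR's test or in DESeq2 (0 genes in both). After APAP 3 of 8 fell and 2 rose, and the list medians were -0.40 after TAA and -0.20 after APAP. Dgat2, the diacylglycerol acyltransferase that uses newly made fatty acids, fell (log2 -1.28 after TAA and -0.99 after APAP). Its counterpart Dgat1 rose after APAP (log2 fold change 0.52) and was not called after TAA (log2 fold change -0.07). Lpin1, a phosphatidate phosphatase, fell from 475 and 468 CPM to 44.4 and 50.8 CPM after APAP (log2 fold change -3.31 ± 0.13, edgeR adjusted p = 8.64e-08). After TAA it was at 30.3 and 56.2 CPM beside 135 and 53.6 CPM, with overlap (log2 fold change -1.13, edgeR adjusted p = 0.171). The difference between models in Lpin1, 2.15 ± 0.63, was not called (edgeR adjusted p = 0.0788). Lpin2 fell (log2 -0.92 after TAA and -0.31 after APAP) but lost its call without any 1 liver in each model (-1.16 to -0.65 and -0.36 to -0.27). Gpat4 fell after TAA (log2 fold change -1.24), and Lpin3 rose after APAP (log2 fold change 1.42).

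Of 11 insulin signal genes, 1 rose and none fell after TAA, and 3 rose and 6 fell after APAP, with list medians of -0.28 after TAA and -0.35 after APAP. In edgeR's test 3 were lower after TAA at an unadjusted p below 0.05, and DESeq2 called 0 lower. Igfbp1, a gene that insulin represses, rose from 96.4 and 111 CPM to 635 and 519 CPM after TAA (log2 fold change 2.48 ± 0.21, edgeR adjusted p = 0.00311). After APAP it was at 90.8 and 169 CPM beside 218 and 401 CPM in the fasted controls (log2 fold change -1.25 ± 0.54, edgeR adjusted p = 0.166). Irs2, an adaptor of the insulin receptor, had a log2 fold change of 0.01 after TAA and rose after APAP (log2 fold change 1.24), as did Pik3r1 (log2 fold change 1.23) and Akt1 (log2 fold change 0.62). Pck1, the gluconeogenic PEPCK, fell after APAP (log2 fold change -2.46), as did Insr (log2 fold change -0.49) and Akt2 (log2 fold change -0.53). After TAA the log2 fold changes of Pik3r1, Akt1, Pck1, Insr and Akt2 were between -1.13 and 0.38, and none was called.

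**Figure D3:**
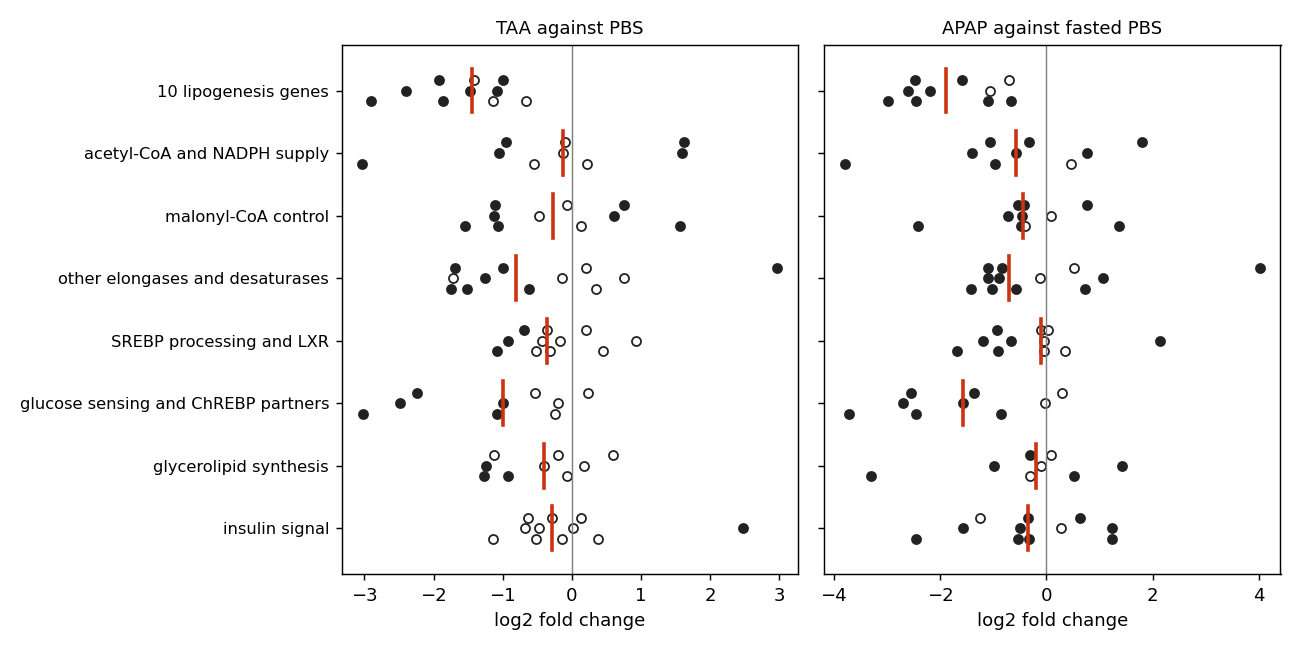
Log2 fold change of every tested gene in the 10 lipogenesis genes and the 7 neighbouring lists, after TAA (left) and after APAP (right), with filled points for an adjusted p below 0.05 and a red bar at each list's median. The 10 lipogenesis genes have medians of -1.44 and -1.89, and most other lists hold genes on both sides of 0.

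Markers were read beside these results, and counts of called markers, here and below, stand beside the shares over all genes tested. These were 13.8% lower and 12.1% higher after TAA, and 27.5% lower and 28.6% higher after APAP. The livers carried hepatocyte RNA, with a summed level of 72162 and 101534 CPM over 7 hepatocyte markers in the PBS livers and 61382 and 99091 CPM after TAA, where none of the 7 fell and 1, Fgb, rose. Ttr alone was lower after TAA at an unadjusted p below 0.05 in edgeR's test, and DESeq2 called 1 of them lower. In the fasted livers the sum was 118104 and 104565 CPM with PBS and 98275 and 86018 CPM after APAP, where 4 fell and Fgb rose. Markers of pericentral hepatocytes, the zone where Cyp2e1 activates both drugs, fell for 7 of 8 genes in each model. Their summed level went from 10689 and 11883 CPM to 1461 and 3769 CPM after TAA and from 10191 and 9562 CPM to 3482 and 3532 CPM after APAP. Of 8 periportal markers, 5 fell in each model, and 2 rose after APAP, with sums of 8104 and 9785 CPM before 3856 and 4682 CPM for TAA, and 10436 and 8146 CPM before 4713 and 4836 CPM for APAP. The part of these marker changes in the lower lipogenic RNAs was not tested.

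Fat cells also express these genes, so adipocyte markers were read. Adipoq, Plin1, Lep and Adig were at 0 in all 4 livers of the TAA model. In the APAP model Adipoq reached 1.02 CPM in fasted PBS replicate 2 and 0.771 CPM in APAP replicate 2 and was at 0 in the other 2 livers. Over 8 adipocyte markers the sum was 29.0 and 44.7 CPM with PBS, 38.5 and 50.7 CPM after TAA, 20.0 and 32.1 CPM with fasted PBS, and 64.5 and 87.3 CPM after APAP, of which Fabp4, also made by macrophages and endothelium, gave up to 66.7 CPM. Of 9 neutrophil markers, 4 of 8 tested rose and 2 fell after TAA, and all 6 tested rose after APAP, from a sum of 2.52 and 3.37 CPM to 22.3 and 22.8 CPM. After TAA that sum was 108 and 94.8 CPM beside 89.9 and 69.7 CPM. Macrophage markers summed to 580 and 627 CPM with PBS, 631 and 613 CPM after TAA, 80.7 and 174 CPM with fasted PBS, and 99.2 and 84.5 CPM after APAP. These sums hide opposite moves, since of the 8 markers 2 rose and 3 fell after TAA, and 2 rose and 1 fell after APAP. Cholangiocyte markers summed to 151 and 95.1 CPM with PBS, 308 and 168 CPM after TAA, 54.6 and 52.9 CPM with fasted PBS, and 101 and 63.0 CPM after APAP. The endothelial and stellate sums lay between 114 and 314 CPM in all 8 livers. Of 6 endothelial markers, 2 rose and 2 fell after TAA, and 3 rose and 1 fell after APAP. Of 6 stellate markers, 1 rose and 1 fell in each model. The part of these cells in the results was not tested.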

How the data were processed

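RNA of 8 mouse livers was sequenced from total RNA libraries. Reads had gone through Trim Galore, then HISAT2 (GRCm38/mm10), then featureCounts, per the submitters' processing notes and methods. Tool versions were not given in the sources used here. For the TAA model the authors deposited whole-number counts per gene. For the APAP model the deposited values are estimated counts, of which 26.4% to 29.1% of those above 0 were not whole, and the step that made them so is not given. These were rounded to whole numbers before the tests, although the design had assumed whole counts in both models. Among the entries of the APAP model, 548 assembled loci that name no gene, 0.457% to 2.46% of a liver's total, were left out. Columns of other samples numbered 0.

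Each model was fitted alone in R 4.3.3 with edgeR 4.0.16 (filterByExpr with a minimum count of 10 and a minimum total of 15, TMM factors, robust quasi-likelihood test, Benjamini-Hochberg adjustment over all genes tested), and the difference of the 2 effects on all 8 livers with genes matched by Ensembl ID. Each SE was derived from the F statistic (effect size over root F) and is approximate. An exact permutation test of 2 against 2 livers cannot go below p = 0.333 (two-sided) and was not used. Alternatives were DESeq2 1.42.0 and its size factors, library totals alone, no filter, no robust estimation, a replicate block, a fit of all 8 livers, and each liver left out in turn. Lengths came from GENCODE release M21 exons and promoters from RefSeq. The test was tried on simulated counts. Figures used Python 3.11.15 and matplotlib 3.10.9.

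The 10 genes, the 7 pathway lists and the 9 marker lists were chosen with earlier results of these data known. Beside the 10 genes, the rule named the 4 genes of highest CPM among those called in each list, direction and model, and the paralogs of the 10, 53 genes in all. The marker genes named fall outside it, and 1 gene that it named is not reported here. The hepatocyte marker Tf matched no gene name.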

Additional observations from a re-analysis of the deposited data

Results flagged for a closer look

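Among the lipogenesis genes the effects of TAA and APAP differed by the interaction test of edgeR for 3, as the TAA effect minus the APAP effect on the log2 scale. These were Acly (1.77, adjusted p = 0.00395), Elovl6 (1.48, adjusted p = 0.0241) and Acacb (-1.36, adjusted p = 0.0459), out of 10 tested and beside 11.0% of all genes tested. Acly and Elovl6 were the enzymes that fell further after APAP, and Acacb the one that fell further after TAA.

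Of the neighbouring genes named, 14 also differed between the models in the same test. The difference was positive for Igfbp1 (3.70), Slc2a2 (1.44), Mid1ip1 (1.31), Tkfc (1.29), Prkaa1 (1.13) and Srebf2 (1.09). It was negative for Elovl5 (-2.28), Pik3r1 (-1.74), Hacd3 (-1.72), Lpin3 (-1.28), Irs2 (-1.26), Mlycd (-1.10), Gpat4 (-0.97) and Rxra (-0.90). Their adjusted p values in edgeR lay between 0.00133 and 0.0335. All 14 kept their sign when any 1 of the 8 livers was left out, and Elovl5, Hacd3, Igfbp1, Pik3r1 and Srebf2 kept their calls in all 8 of these fits. The call was lost in 7 of the 8 for Rxra (-0.97 to -0.71), in 6 for Gpat4 (-1.15 to -0.73) and Slc2a2 (1.08 to 1.87), and in 5 for Prkaa1 (0.96 to 1.46) and Mlycd (-1.20 to -0.83). It was lost in 4 for Mid1ip1 (1.07 to 1.74) and Lpin3 (-1.30 to -1.09), in 3 for Tkfc (1.09 to 1.59) and in 2 for Irs2 (-1.39 to -0.97). Most of these genes were chosen for being called in 1 of the models, which favours such differences. The 14 were also picked by calls in the fit of all 8 livers, which favours a kept sign when 1 is left out. Agent, route, feeding and the kind of counts cannot be told apart.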

How the results depend on the processing

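All 10 lipogenesis genes kept a negative log2 fold change in both models under all alternatives run. The count called lower after TAA (7) was 3 to 8 when 1 liver was left out, 10 in DESeq2 and in the fit of all 8 livers, and 5 with library totals alone. After APAP (8) it was 7 to 8 with 1 liver left out, 9 in DESeq2 and 7 with library totals alone. With library totals alone the median of all genes moved to 0.23 after TAA and 0.22 after APAP, and the genes called went from 2031 higher and 2317 lower to 3029 and 1752 for TAA, and from 4238 and 4070 to 5150 and 3166 for APAP. Over all genes, leaving out PBS replicate 1 left 459 higher and 667 lower after TAA, and PBS replicate 2 left 322 and 415.

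Over genes, replicate 1 minus replicate 2 differences in control and treated livers correlated at 0.0385 (TAA) and 0.0707 (APAP). With 2 livers per group this cannot settle whether replicate numbers pair the livers. With the number as a replicate block, 6 lipogenesis genes were called lower after TAA, with Acly gained and Me1 and Thrsp lost, and 10 after APAP. For the difference of effects the block gave 2 lower (Acacb and Srebf1) and 1 higher (Acly).

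For that difference the count of lipogenesis genes called lower (1) was 0 with DESeq2 size factors and 0 with library totals alone, and 0 to 1 without 1 liver. The count called higher (2) was 1 to 2 without 1 liver. Without 1 liver this difference ran from -0.93 to 0.19 for Scd1 (positive without TAA replicate 1) and from -1.37 to 0.46 for Thrsp (positive without PBS replicate 1, TAA replicate 1 or fasted PBS replicate 2), all uncalled.

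Signs of uncalled neighbouring genes turned after TAA. Library totals alone gave 0.062 for Hsd17b12, 0.14 for Dgat1, 0.058 for Insr, 0.099 for Me2 and 0.015 for Mlx, and after APAP 0.12 for Rxra. Irs2 was -0.0049 with DESeq2 size factors, -0.0049 in DESeq2 and -0.0036 with no filter. Leaving out 1 liver after TAA gave -0.72 to 0.12 for Insig1, -0.32 to 0.21 for Dgat1, -0.21 to 0.25 for Irs2, -1.09 to 0.43 for Insr, -0.23 to 0.038 for Me2 and -0.54 to 0.089 for Mlx.

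Of the 29 neighbouring genes named and called after TAA, all kept their sign without any 1 liver and 25 lost their call in at least 1 of the 4 fits, 5 of them in every one. After APAP 3 of 42 lost it in at least 1 fit, namely Elovl2, Insr and Lpin2. These neighbouring genes were picked by calls in the same livers, which favours a kept sign. The fewest counts of any of the 10 genes in a liver were 292, and the part of depth in the calls was not tested.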
